A study of Mus musculus with 14 samples.

Results

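The genes described here are the nuclear-encoded genes of the mitochondrial respiratory chain and ATP synthase in mouse embryonic stem cells. They were taken by symbol from the gene tables: every protein-coding gene whose symbol starts with Ndufa, Ndufb, Ndufc, Ndufs or Ndufv, the 4 subunit genes Sdha to Sdhd, and symbols starting with Uqcr, Cox4 to Cox8, or Atp5. This gave 93 genes of the 37991 in the tables. Genes were assigned to complexes by the start of their symbol alone, so Ndufa4 and Ndufa4l2 count as complex I and Atp5s as complex V. The 93 comprise 38 genes of complex I, 4 of complex II, 8 of complex III, 18 of complex IV and 17 of complex V. The other 8 are Ndufaf genes, which encode complex I assembly factors and share the Ndufa symbol start. The 93 genes lie on 19 chromosomes, and the rule uses symbols and gene type only.

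The respiratory chain passes electrons from NADH (complex I) and succinate (complex II) through ubiquinone and complex III to cytochrome c and on to oxygen at complex IV. The protons it pumps drive complex V, the ATP synthase. Complexes I, III, IV and V combine subunits encoded in the nucleus with a few encoded in mitochondrial DNA, while complex II is encoded wholly in the nucleus. Embryonic stem cells in culture are known to rely strongly on glycolysis and still express the full chain.

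All libraries came from J1 mouse embryonic stem cells of the 129S4/SvJae strain, and poly(A)-selected RNA was sequenced and counted per gene. The study asked what loss of DNA methylation, of Polycomb repression and of Tet1 does to transcription. In the first experiment, Dnmt-TKO cells, which lack the DNA methyltransferases Dnmt1, Dnmt3a and Dnmt3b (TKO below), were given PRT4165, an inhibitor of Polycomb repressive complex 1, or its vehicle DMSO, and wild-type (WT) cells were given the same agents. In the second, untreated cells were compared: Tet1KO-TKO cells, which lack Tet1 as well as the 3 methyltransferases, TKO cells and WT cells. Each of the 7 groups has 2 libraries, and the labels do not say whether the pair were separate cultures. The p-values below therefore rest on the spread within pairs of libraries, which may be only technical. Each mutant is represented by the line the labels name, so genotype and differences between lines cannot be told apart. The labels used here give no dose or duration for the inhibitor.

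Library totals ran from 25588815 to 37399837 counts in the first experiment and from 23354015 to 41844823 in the second. All 8 pluripotency markers examined, Pou5f1, Nanog and Sox2 among them, had counts in every group, and 8 fibroblast markers summed to at most 10.8 normalised counts per 1000000 (CPM) in any library. The summed level of the pluripotency markers was 4220 and 4231 CPM in TKO_DMSO cells against 5482 and 5644 CPM in WT_DMSO cells, and 5632 and 5715 CPM in untreated TKO cells against 7027 and 7714 CPM in untreated WT cells. The 6 trophoblast markers summed to 763 and 794 CPM in TKO_DMSO cells against 68.5 and 77.2 CPM in WT_DMSO cells, and to 131 and 141 CPM in untreated TKO cells against 46 and 52.4 CPM in untreated WT cells. The part of these differences in the results below was not tested. Dnmt1, Dnmt3a and Dnmt3b mRNA fell by 1.28 to 2.14 on the log2 scale in TKO_DMSO over WT_DMSO cells, and Tet1 mRNA fell by 2.19 in Tet1KO-TKO over TKO cells.

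The respiratory chain genes were abundant. They took 1.14% and 1.15% of all counts in the TKO_DMSO libraries, against 1.34% and 1.27% in WT_DMSO, and 1.17% and 1.13% in TKO_PRT4165 against 1.33% in each WT_PRT4165 library. In the second experiment their share was 1.33% and 1.21% in Tet1KO-TKO cells, 1.16% in each TKO library, and 1.39% and 1.5% in WT cells. The WT libraries were therefore above the TKO libraries in every condition. Per kilobase of transcript, the level of the ATP synthase beta subunit gene Atp5b was the highest of the 93 in WT cells, at 1272 CPM per kb with DMSO and 1095 CPM per kb untreated, while the median gene had 94.7 and 107 CPM per kb. Low-count filtering left 91 genes in each experiment. The other 2 were the striated muscle isoforms Cox6a2, with 4 counts over the 8 libraries of the first experiment and 0 in the second, and Cox8b, with 10 and 4 counts.

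**Figure D1:**
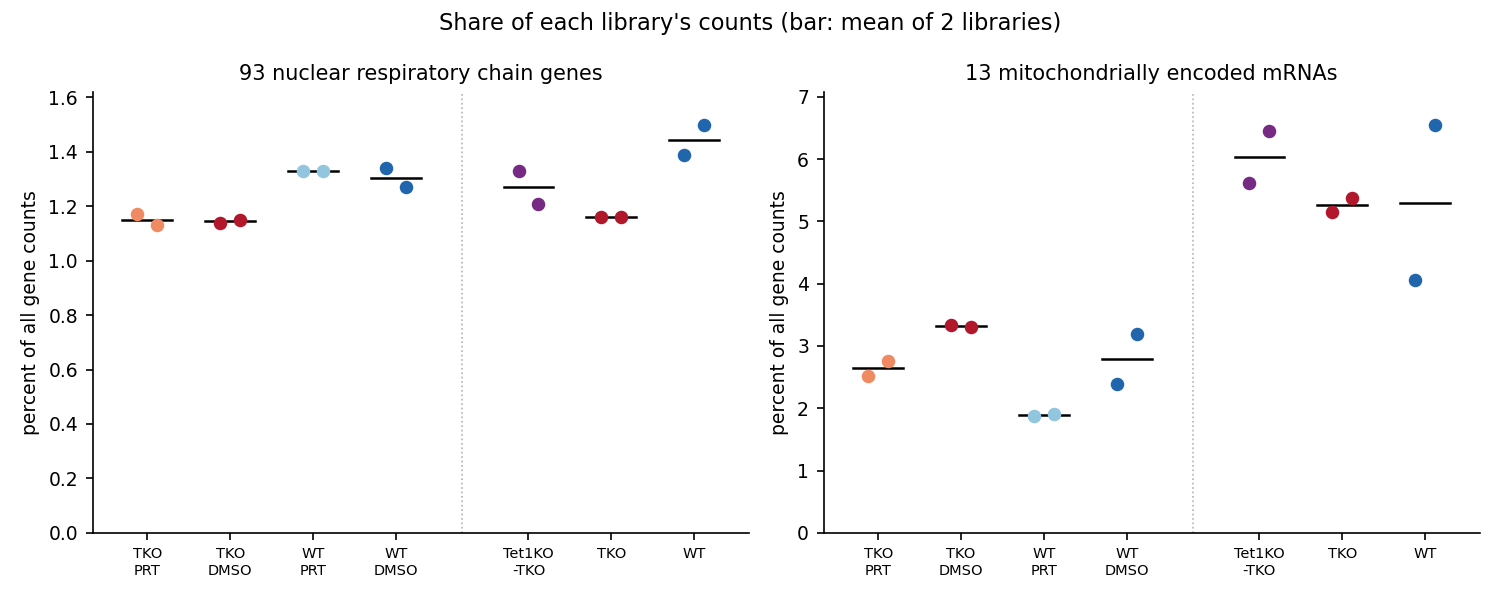
Share of each library's gene counts taken by the 93 nuclear respiratory chain genes (left, percent) and by the 13 mitochondrially encoded mRNAs (right, percent), for the 7 groups; points are libraries, bars are means of 2, and the dotted line separates the experiments. The nuclear share was 1.13% to 1.17% in TKO cells of the first experiment and 1.27% to 1.34% in WT cells.

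Without DNA methyltransferases, most of the respiratory chain genes were lower. In TKO_DMSO over WT_DMSO cells 70 of the 91 fell and 5 rose, against 34.2% of all 16711 genes tested that fell and 34.8% that rose (edgeR quasi-likelihood test, Benjamini-Hochberg adjusted p under 0.05). The median log2 change was -0.37, beside 0.01 over all genes. In untreated cells 56 fell and 4 rose, against 24.3% and 25.9% of 16303 genes, with a median of -0.37 beside -0.00. The experiments share no library: 51 genes fell in both, which is 72.9% of those that fell with vehicle, 91.1% of those that fell untreated, and 56.0% of the 91, while 20.8% of all genes tested in both experiments fell in both. No gene was called in opposite directions. In TKO_DMSO cells both libraries lay below both WT_DMSO libraries for 71 of the 91 genes and above them for 8, against 40.8% and 42.5% of all genes; untreated this held for 79 and 5, against 37.5% and 38.5%.

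These counts depended on how library composition was handled. Scaling by library size alone moved the median of all genes to 0.16 in TKO_DMSO over WT_DMSO cells and the share of calls that were rises to 63.5%, from 50.5%; the members' median then lay at -0.22, still 0.38 below it. With a term for transcript length, 45 genes fell and 19 rose with vehicle, and 34 fell and 8 rose untreated, where 25.7% and 42.5% of all genes fell and rose with vehicle and 21.7% and 29.4% untreated. The members' median was then -0.12 beside 0.15 over all genes with vehicle and -0.18 beside 0.07 untreated. Other genes with at least 8 CPM on average also had medians below 0 in TKO cells. With vehicle this held in every length class, beside a median of 0.01 over all genes tested, and untreated it held under 3000 bases. Among the genes with at least 8 CPM on average and transcripts under 750 bases, the median was -0.32 for 35 members and -0.15 for 178 other genes with vehicle, and -0.32 against -0.23 (191 other genes) untreated. From 750 to under 1500 bases it was -0.38 for 29 members and -0.25 for 1018 other genes with vehicle, and -0.50 for 30 members against -0.18 for 1030 others untreated. From 1500 to under 3000 bases it was -0.39 for 16 members and -0.18 for other genes with vehicle, and -0.35 against -0.09 untreated. From 3000 bases it was -0.39 for 4 members and -0.07 for other genes with vehicle, and -0.27 against 0.01 untreated. The members' median was the lower in every class. Without TKO_untreated replicate 2, 35 genes rather than 56 fell in untreated cells. Under all 4 scalings 27 genes fell in both experiments, 14 of them in complex I, 3 in complex II, 1 in complex III, 4 in complex IV, 4 in complex V and 1 an assembly factor.

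**Figure D2:**
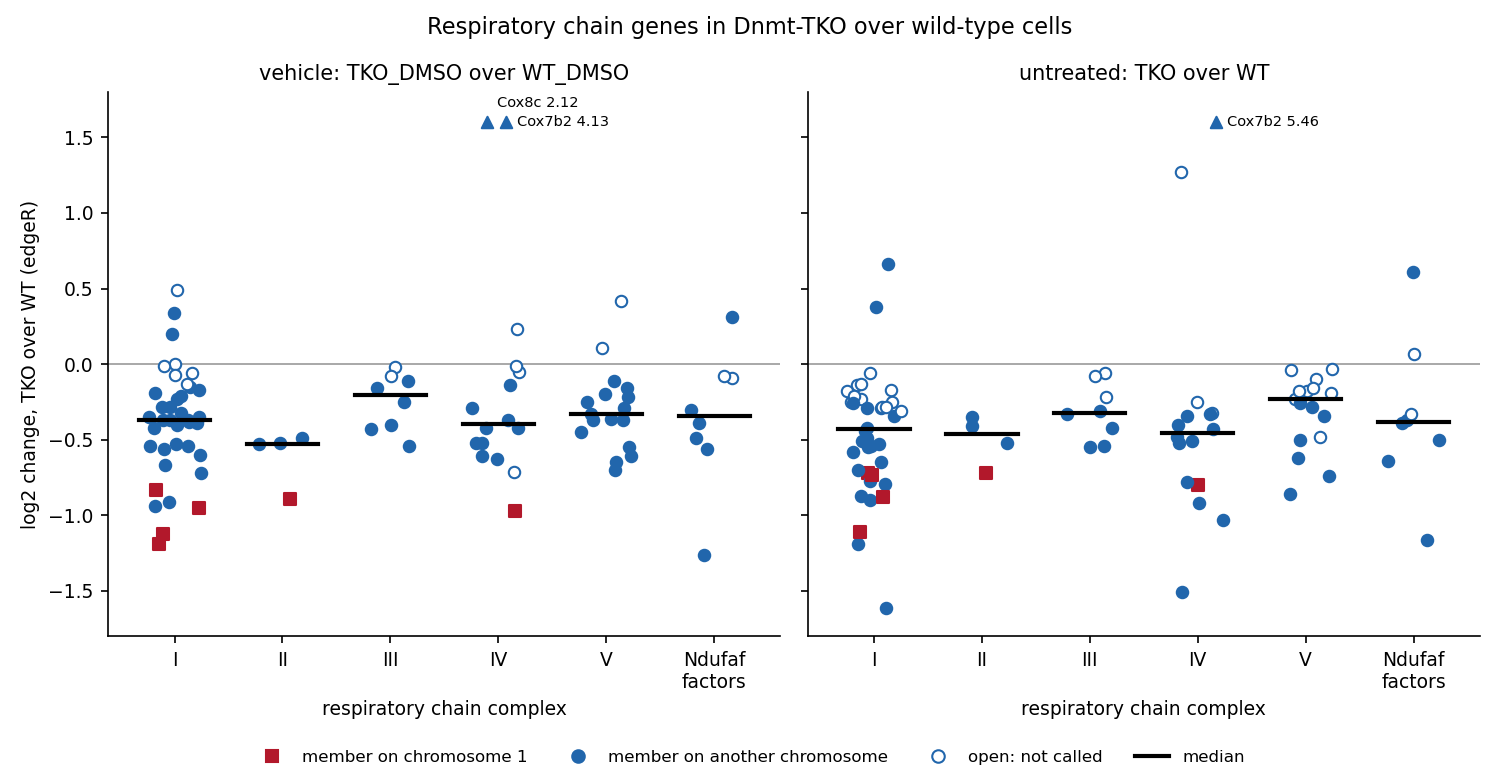
The log2 change in TKO over WT cells of each of the 91 genes tested, by complex, with vehicle (left) and untreated (right); filled symbols passed the adjusted p of 0.05, red squares lie on chromosome 1, black bars are medians, and genes beyond the axis are drawn as triangles at 1.6 with their value. Medians lay between -0.53 and -0.21 with vehicle and between -0.46 and -0.23 untreated.

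Complex I, the NADH dehydrogenase, had 30 genes that fell and 2 that rose with vehicle, and 23 and 2 untreated. Under length adjustment the complex had 18 that fell and 7 that rose with vehicle, and 18 and 2 untreated. All 7 of its nuclear core subunits, which serve electron transfer from NADH to ubiquinone, fell in both experiments, by 0.21 to 1.12 on the log2 scale with vehicle and by 0.26 to 0.88 untreated. Under length adjustment Ndufs8 was not called with vehicle (0.03, adjusted p = 0.635), nor Ndufv1 untreated (-0.11, adjusted p = 0.244). Each of these calls held under only 2 of the 4 scalings. Ndufs1, the iron-sulphur subunit of the electron input module, had 152 and 153 CPM in TKO_DMSO cells against 349 and 314 CPM in WT_DMSO cells, and 170 and 162 CPM in untreated TKO cells against 286 and 324 CPM in untreated WT cells. Both TKO libraries lay below both WT libraries each time, and the log2 change was -1.12 (SE 0.05, edgeR adjusted p = 4.92e-16) with vehicle and -0.88 (SE 0.10, adjusted p = 1.94e-05) untreated. Its exons overlap those of Eef1b2 and Ino80dos in the annotation.

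Among the accessory subunits of complex I, taken as all its genes by symbol outside the core, 23 of 31 fell with vehicle and 16 untreated. Ndufb3, a membrane-arm subunit, had 25.1 and 27.8 CPM in TKO_DMSO cells against 63.0 and 58.1 CPM in WT_DMSO cells, a log2 change of -1.19 (SE 0.07), and changed by -1.11 (SE 0.12) untreated. Ndufb11, another membrane-arm subunit, on the X chromosome, had 45.6 and 43.6 CPM in TKO_DMSO cells against 90.6 and 81.3 CPM in WT_DMSO cells (-0.94, SE 0.06). Untreated it had 69.6 and 69.7 CPM in TKO cells against 132 and 186 CPM in WT cells (-1.19, SE 0.14), and its exons overlap those of Rbm10. Thus the falls reached about 2-fold in Ndufs1 of the redox arm and in Ndufb3 and Ndufb11 of the membrane arm. Ndufs1 and Ndufb3 lie on chromosome 1, whose genes as a whole had medians of -0.40 with vehicle and -0.46 untreated. Ndufb7 and Ndufb10, also of the membrane arm, rose instead. Ndufb7 had 67.6 and 69.0 CPM in TKO_DMSO cells against 56.0 and 51.9 CPM in WT_DMSO cells (0.34, SE 0.06, adjusted p = 1.00e-05), and 58.7 and 58.1 CPM in untreated TKO cells against 38.4 and 35.6 CPM in WT cells (0.66, SE 0.10, adjusted p = 0.000216). Ndufb10 rose by 0.20 (SE 0.05) with vehicle and by 0.38 (SE 0.10) untreated, where the call was lost without TKO_untreated replicate 2 (adjusted p = 0.0729).

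The complex I assembly factors were split. Ndufaf7, a mitochondrial methyltransferase needed for complex I assembly, had 14.2 and 13.6 CPM in TKO_DMSO cells against 33.7 and 32.8 CPM in WT_DMSO cells, and 14.6 and 13.7 CPM in untreated TKO cells against 31.2 and 32.1 CPM in WT cells. Its log2 change was -1.26 (SE 0.08, adjusted p = 1.19e-12) with vehicle and -1.16 (SE 0.12, adjusted p = 1.11e-05) untreated. Under the TMM scaling Ndufaf1, Ndufaf3, Ndufaf5 and Ndufaf6 also fell in both, by 0.30 to 0.56 with vehicle and by 0.37 to 0.64 untreated. Under length adjustment Ndufaf1 was called in neither experiment (adjusted p = 0.0695 with vehicle and 0.209 untreated). Nor was Ndufaf3 with vehicle (0.571), or Ndufaf5 and Ndufaf6 untreated (0.0646 and 0.194). The Ndufaf3 vehicle call and the untreated calls of Ndufaf1 and Ndufaf6 held under 2 of the 4 scalings. Without TKO_untreated replicate 2 the untreated calls of Ndufaf1, Ndufaf5 and Ndufaf6 were lost (adjusted p = 0.419, 0.0899 and 0.0895), as were those of Ndufaf6 without TKO_untreated replicate 1 (0.14), of Ndufaf5 without WT_untreated replicate 2 (0.0552), of Ndufaf1 without either WT_untreated library (0.0704 and 0.128), and of Ndufaf3 with vehicle without WT_DMSO or TKO_DMSO replicate 1 (0.0855 and 0.122). Ndufaf4 rose: it had 42.5 and 42.4 CPM in TKO_DMSO cells against 35.7 and 33.0 CPM in WT_DMSO cells (0.31, SE 0.06), and 49.0 and 50.5 CPM in untreated TKO cells against 29.2 and 36.1 CPM in WT cells (0.61, SE 0.12).

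Nuclear respiratory factor 1 (NRF1) is known to bind the promoters of many respiratory chain genes at a GC-rich palindrome. RefSeq (GRCm38.p6) gave promoter windows, from 250 bases before to 50 after the annotated start, for 76 of the 93 genes. The NRF1 palindrome, the run in capitals in the window shown here, reads the same on both strands and occurred in 7 of the 76 (9.21%), against 1.47% of 17492 protein-coding genes with a window. The 7 genes were Atp5g2, Atp5k, Cox6a1, Ndufa11, Ndufaf4, Ndufaf5 and Uqcrc1. The ETS-family letters CCGGAAG, on either strand, occurred in 23.7% against 12.9% of all, and the SP-family letters GGGCGG in 46.1% against 49.2%. The NRF1 run was thus more frequent among these genes, and a match describes the sequence only. Of the 7, Ndufaf4 alone was called higher in TKO cells under the TMM scaling, and Ndufaf5 and Cox6a1 were called lower in both experiments. Over the 4 scalings Ndufaf5 changed by -0.49 to -0.25 with vehicle and by -0.50 to -0.30 untreated. Cox6a1 changed by -0.52 to -0.27 and by -0.43 to -0.17. A link between the motif and these changes was not tested. The window of Ndufaf4 (chr4:24897833-24898132, plus strand) is shown with the NRF1 letters in capitals.
Ndufaf4: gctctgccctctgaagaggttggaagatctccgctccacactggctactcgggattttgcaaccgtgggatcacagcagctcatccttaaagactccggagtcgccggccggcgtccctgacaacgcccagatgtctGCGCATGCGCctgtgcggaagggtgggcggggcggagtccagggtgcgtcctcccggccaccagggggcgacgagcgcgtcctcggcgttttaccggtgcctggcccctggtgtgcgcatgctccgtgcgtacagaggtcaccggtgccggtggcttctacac

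All 4 genes of complex II, succinate dehydrogenase, fell in both experiments. Sdha, the flavoprotein that oxidises succinate, had 257 and 258 CPM in TKO_DMSO cells against 381 and 360 CPM in WT_DMSO cells (log2 change -0.52, SE 0.05), and 230 and 226 CPM in untreated TKO cells against 295 and 285 CPM in WT cells (-0.35, SE 0.09). Sdhb, the iron-sulphur subunit, changed by -0.53 (SE 0.05) and -0.41 (SE 0.11). The membrane anchor Sdhc had 93.1 and 96.2 CPM in TKO_DMSO cells against 186 and 165 CPM in WT_DMSO cells (-0.89, SE 0.06), and 84 and 82 CPM in untreated TKO cells against 147 and 127 CPM in WT cells (-0.72, SE 0.10). For both genes every TKO library lay below every WT library. The other anchor, Sdhd, changed by -0.49 (SE 0.05) and -0.52 (SE 0.11). The untreated calls of Sdha (adjusted p = 0.0763 without TKO_untreated replicate 1 and 0.1 without replicate 2) and Sdhb (0.0816 without replicate 1) were lost when 1 library was left out, and that of Sdhb also under length adjustment (0.125).

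Complex III, the cytochrome bc1 complex, had the smallest vehicle median of the complexes. With vehicle 6 of its 8 genes fell and untreated 5, with medians of -0.21 and -0.32. Under length adjustment the vehicle median was 0.03, with 3 genes falling and 3 rising, and the untreated median -0.15, with 1 falling and 1 rising. Uqcrc2, a core protein of the complex, had 156 and 159 CPM in TKO_DMSO cells against 204 and 214 CPM in WT_DMSO cells (-0.40, SE 0.05), and 194 and 185 CPM in untreated TKO cells against 228 and 280 CPM in WT cells (-0.42, SE 0.11). The untreated call was lost without TKO_untreated replicate 2 (adjusted p = 0.0736). Uqcrb, the ubiquinone-binding subunit, changed by -0.54 (SE 0.07) with vehicle and -0.54 (SE 0.14) untreated. Under length adjustment the untreated call of Uqcrb was lost (adjusted p = 0.0661).

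In complex IV, cytochrome c oxidase, 10 of the 16 genes tested fell and 2 rose with vehicle, and 12 fell and 1 rose untreated. Under length adjustment 8 fell and 4 rose with vehicle, and 6 fell and 2 rose untreated. Cox5b, a zinc-binding subunit on the matrix side, had 110 and 115 CPM in TKO_DMSO cells against 215 and 225 CPM in WT_DMSO cells (log2 change -0.97, SE 0.05, adjusted p = 2.57e-15), and 105 and 103 CPM in untreated TKO cells against 185 and 176 CPM in WT cells (-0.80, SE 0.11, adjusted p = 6.70e-05). Cox7a2, the widely expressed form of subunit VIIa, had 62.8 and 67.0 CPM in TKO_DMSO cells against 102 and 99.4 CPM in WT_DMSO cells (-0.63, SE 0.06). Untreated it had 114 CPM in each TKO library against 176 and 289 CPM in WT cells (-1.03, SE 0.17), so that the WT libraries lay farther from each other than the TKO libraries lay from the nearer of them. Cox5a, Cox6a1 and Cox6b1 fell by 0.52 to 0.61 with vehicle and by 0.34 to 0.43 untreated. Their untreated calls were lost under length adjustment, and those of Cox5a and Cox6b1 also without TKO_untreated replicate 2 (adjusted p = 0.0822 and 0.0925) or, for Cox6b1, replicate 1 (0.0908).

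Several complex IV subunits have isoforms restricted to particular tissues, and Cox7b2 and Cox8c were the complex IV genes that rose in TKO cells. Cox7b2, a relative of Cox7b known from testis, had 87 and 125 counts (2.93 and 4.18 CPM) in TKO_DMSO cells against 8 and 4 counts (0.286 and 0.124 CPM) in WT_DMSO cells. In untreated cells it had 272 and 200 counts (7.73 and 6.45 CPM) in TKO against 3 and 5 counts (0.106 and 0.220 CPM) in WT. This was the largest rise among the 91 genes, at 4.13 (SE 0.34, adjusted p = 1.07e-10) with vehicle and 5.46 (SE 0.36, adjusted p = 2.26e-07) untreated, from a WT level of a few counts. Even so, in untreated TKO cells Cox7b2 reached 13.1 CPM per kb, beside 192 CPM per kb for Cox7b. Cox8c, the testis isoform of subunit VIII, had 23 and 21 counts in TKO_DMSO cells against 5 in each WT_DMSO library (2.12, SE 0.49, adjusted p = 0.000501), and 19 and 22 counts in untreated TKO cells against 7 and 6 in WT cells (1.27, SE 0.54, adjusted p = 0.0676). Cox8c untreated was called under length adjustment (1.55, adjusted p = 0.0295) and with the compared groups only (1.28, 0.0432). The 5 male germ cell markers examined summed to 2.32 and 2.51 CPM in TKO_DMSO cells against 0.464 and 0.591 CPM in WT_DMSO cells, and to 3.04 and 3.45 CPM in untreated TKO cells against 0.459 and 0.794 CPM in WT cells. With vehicle, Prm1 and Prm2 were at 0 in TKO cells and Prm2 and Tnp1 in WT cells. Untreated, Prm1, Prm2 and Tnp1 were at 0 in TKO cells and Acrv1 and Tnp1 in WT cells. The summed TKO levels thus rest on 3 of the 5 markers with vehicle and 2 untreated, and their part in these rises was not tested.

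The promoter windows of Cox7b2 (chr5:71548156-71548455, minus strand), near-silent in WT cells, and Cox7b (chrX:106015450-106015749, plus strand), active in all groups, are shown with CpG dinucleotides, the sites of DNA methylation, in capitals. The Cox7b2 window holds 10 CpGs and that of Cox7b 5, beside medians of 20 per window for the members and 13 for all protein-coding genes. Methylation itself was not measured here.
Cox7b2: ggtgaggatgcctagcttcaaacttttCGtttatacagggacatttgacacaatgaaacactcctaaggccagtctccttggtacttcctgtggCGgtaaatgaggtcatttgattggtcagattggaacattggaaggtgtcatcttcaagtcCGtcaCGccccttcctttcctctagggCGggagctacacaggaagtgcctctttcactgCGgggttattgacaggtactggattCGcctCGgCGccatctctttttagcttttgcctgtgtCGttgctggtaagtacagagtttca
Cox7b: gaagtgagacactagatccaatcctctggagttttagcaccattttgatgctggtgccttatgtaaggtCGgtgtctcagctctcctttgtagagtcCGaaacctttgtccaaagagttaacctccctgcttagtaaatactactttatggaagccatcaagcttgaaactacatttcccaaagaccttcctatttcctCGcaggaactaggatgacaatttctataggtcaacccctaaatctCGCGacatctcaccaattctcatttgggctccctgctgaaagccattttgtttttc

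No other restricted isoform was called higher in TKO cells under the TMM scaling. Cox4i2, the lung and hypoxia-responsive form of subunit IV, changed by -0.71 (SE 0.37, adjusted p = 0.0927) with vehicle and -1.51 (SE 0.33, adjusted p = 0.00236) untreated, where it had 0.994 and 1.45 CPM in TKO cells against 2.54 and 4.45 CPM in WT cells. Ndufa4l2, a hypoxia-inducible relative of Ndufa4, had 6.68 and 10.8 CPM in untreated TKO cells against 28 and 25.4 CPM in WT cells (-1.61, SE 0.21, adjusted p = 6.63e-05). With vehicle it had 1.65 and 1.94 CPM in TKO cells against 1.18 and 1.37 CPM in WT cells (0.49, SE 0.25, adjusted p = 0.0866). Its exons overlap those of Shmt2, and its level in untreated WT cells was far above that in the vehicle experiment. The muscle isoform Cox7a1 changed by -0.05 (SE 0.12) and -0.52 (SE 0.18, adjusted p = 0.0263, and 0.0549 by DESeq2), and Cox6b2 by 0.23 (SE 0.12) and -0.32 (SE 0.17), with neither Cox6b2 change called. The Cox7a1 call was also lost without TKO_untreated replicate 1 or 2 (0.152 and 0.084) or WT_untreated replicate 2 (0.127). With vehicle, library size scaling called both Ndufa4l2 (0.64, adjusted p = 0.0296) and Cox6b2 (0.38, adjusted p = 0.00812) higher, as did length adjustment (0.73 and 0.48). The vehicle change of Cox4i2 passed without WT_DMSO replicate 1 (-1.03, adjusted p = 0.0297) or TKO_DMSO replicate 2 (-1.16, adjusted p = 0.0492).

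In complex V, the ATP synthase, 15 of 17 genes fell with vehicle and 7 untreated, and none rose. With vehicle, 1 gene rose with DESeq2 size factors, 2 with library size scaling and 3 under length adjustment. Under length adjustment 9 fell with vehicle, and 4 fell and 1 rose untreated. Atp5d, the delta subunit of the rotor stalk, had 130 and 126 CPM in TKO_DMSO cells against 199 and 194 CPM in WT_DMSO cells (-0.61, SE 0.05), and 114 and 111 CPM in untreated TKO cells against 161 and 157 CPM in WT cells (-0.50, SE 0.10). Atp5j, coupling factor 6 of the stator stalk, had 97.8 and 96.3 CPM in TKO_DMSO cells against 151 and 154 CPM in WT_DMSO cells (-0.65, SE 0.05), and changed by -0.74 (SE 0.13) untreated. Its exons overlap those of Gabpa. Atp5j2, the f subunit of the membrane sector, changed by -0.55 (SE 0.06) and -0.86 (SE 0.14). Atp5d, Atp5j and Atp5j2, named for their small p, thus fell in both experiments, while 10 of the 17 genes were not called untreated. Over the 4 scalings Atp5h changed by -0.45 to -0.19 with vehicle, called under all 4. Untreated it changed by -0.26 to -0.01, called under 1.

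**Figure D3:**
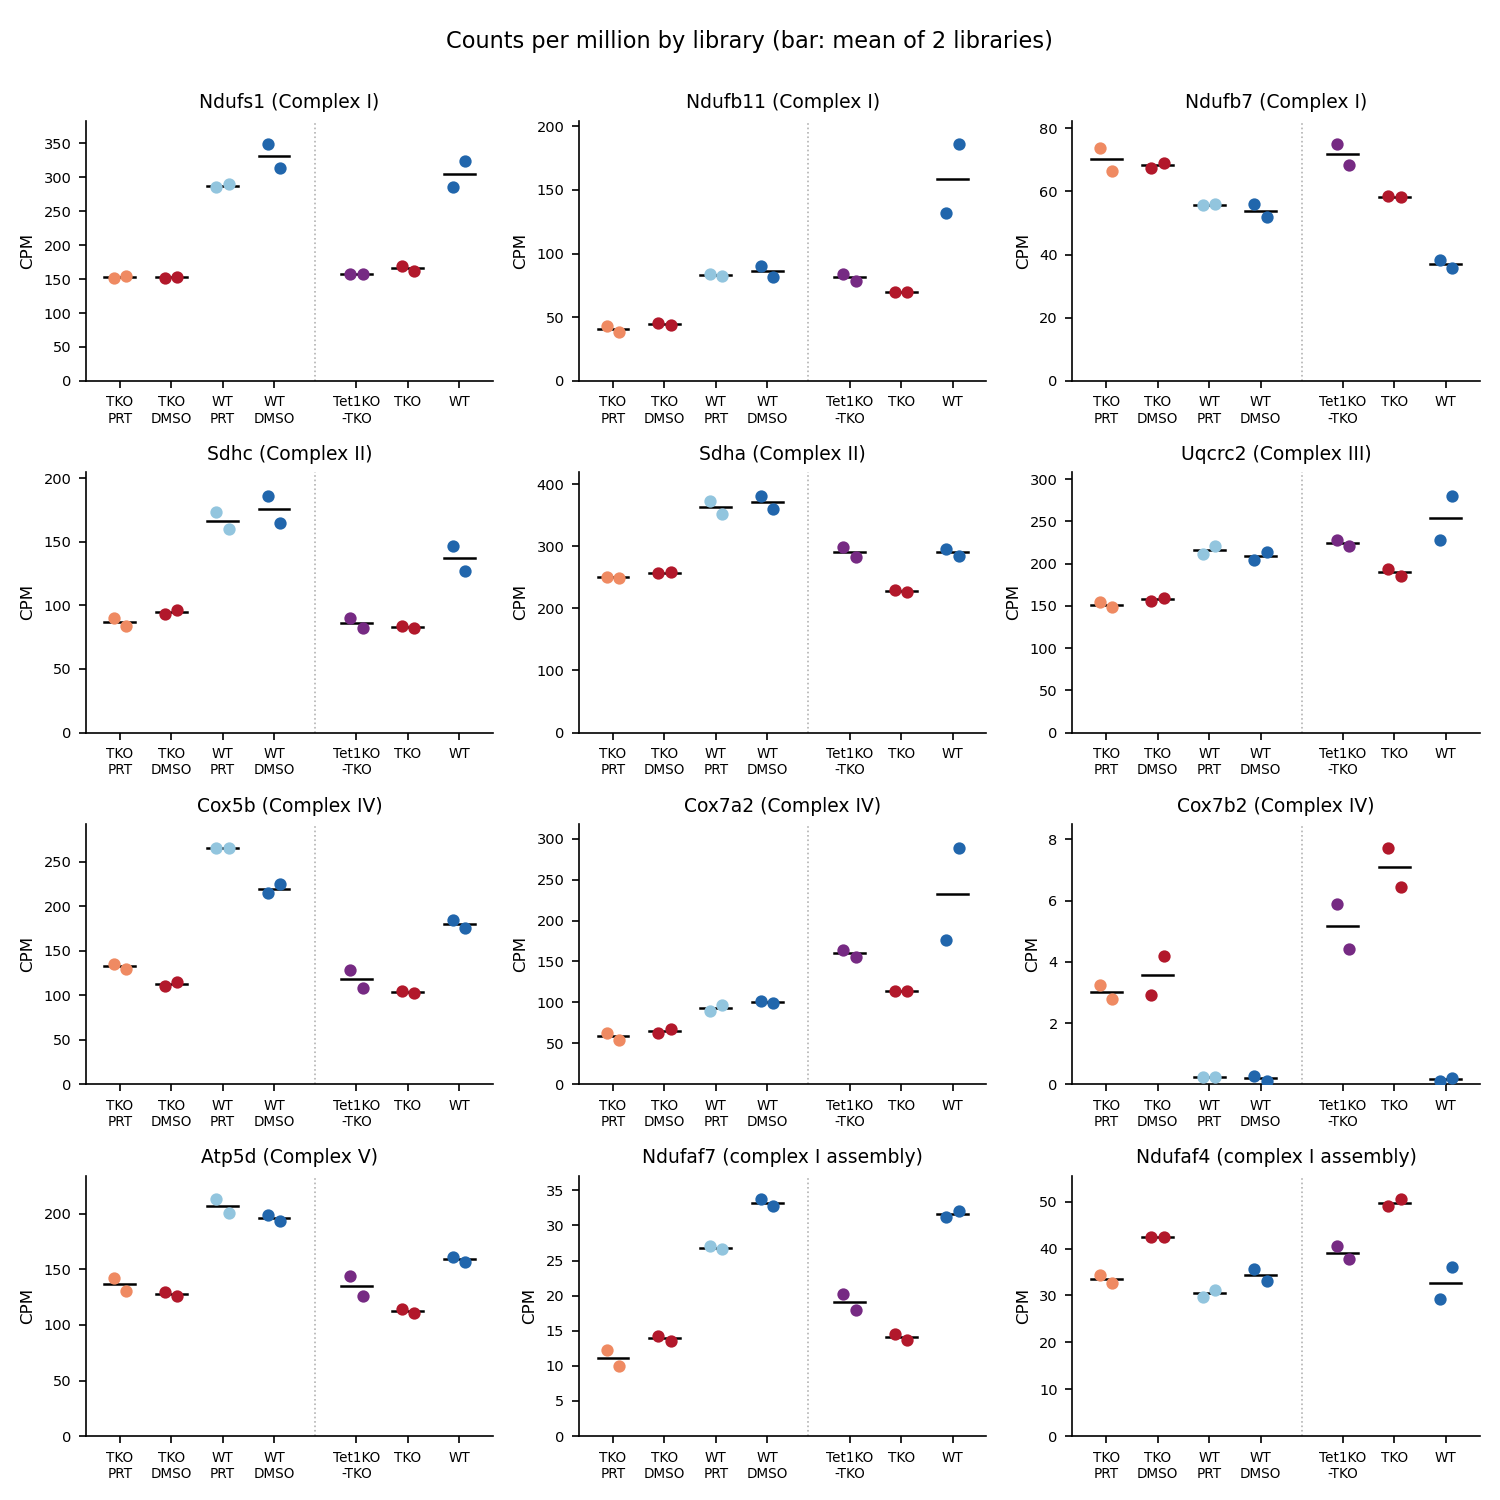
TMM-normalised CPM of 12 genes in every library, by group; points are libraries, bars are means of 2, axes start at 0, and the dotted line separates the experiments. Ndufs1, Sdhc and Cox5b are lower in all TKO and Tet1KO-TKO libraries than in any WT library of the same experiment, while Ndufb7 and Cox7b2 are higher.

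Chromosomes 1 and 8 as a whole stood apart in TKO cells, with medians over all their genes of -0.40 and 0.33 with vehicle and -0.46 and 0.29 untreated. All 6 members on chromosome 1, Cox5b, Ndufa10 and Sdhc among them, fell in both experiments, with medians of -0.96 and -0.76, and they include 4 of the 5 largest falls with vehicle. Ndufb7, which rose, lies on chromosome 8 with Cox4i1 and Ndufa13; the median of the 3 was -0.01 with vehicle and -0.06 untreated. On the other chromosomes 63 of 82 members fell and 4 rose with vehicle (median -0.36), and 50 fell and 3 rose untreated (median -0.35). The part of chromosome copy number in these values was not tested.

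Other mitochondrial gene groups moved in part with the members. Of all genes tested, 34.2% fell and 34.8% rose with vehicle, and 24.3% and 25.9% untreated. In Tet1KO-TKO over TKO cells these shares were 10.3% and 11.6%. Among 76 nuclear genes for mitochondrial ribosomal proteins, 48 fell and 8 rose with vehicle (median -0.31) and 29 fell and 5 rose untreated (-0.17). Of 37 assembly factors outside the Ndufaf group, 23 fell and 1 rose with vehicle, and 16 fell and none rose untreated. In Tet1KO-TKO over TKO cells 1 of them fell and 4 rose (10.8%, near the share of all genes). Of 12 transcription regulators of these genes, 9 fell and 2 rose with vehicle, and 2 fell untreated (16.7%, below the share of all genes). The mitochondrially encoded mRNAs showed no such shift with vehicle: 11 of 12 tested lay above 0, and 1 rose, mt-Co3 (0.15, SE 0.06). Untreated, 7 of 12 lay below 0 and 1 fell, mt-Nd3 (-0.84, SE 0.33). Their share of counts was 4.05% and 6.55% in the untreated WT libraries, and the untreated SEs ran from 0.16 to 0.33. A fall of the size of the members' median could therefore not be excluded untreated. Cytosolic ribosomal protein genes, also short and abundant, had a smaller median of -0.14 with vehicle, with 55 of 97 falling and 10 rising. Untreated their median was also smaller, at -0.10, with 17 falling (17.5%, below the share of all genes) and 9 rising.

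The Polycomb inhibitor PRT4165 changed few respiratory chain genes, and about as many up as down. In WT cells, PRT4165 over DMSO, 14 of 91 genes rose and 11 fell, against 19.0% and 18.7% of all genes tested, with a median of 0.02. In TKO cells 9 rose and 15 fell, against 19.9% and 19.6% of all genes, with a median of -0.00. These shares lie near or below those of all genes. The WT rises numbered 6 without WT_PRT4165 replicate 1, and the WT falls 4 without WT_DMSO replicate 1, 18 without WT_DMSO replicate 2, 7 without WT_PRT4165 replicate 1 and 5 without WT_PRT4165 replicate 2. The TKO rises numbered 2 and 5 without TKO_DMSO replicate 1 and 2 and 4 and 5 without TKO_PRT4165 replicate 1 and 2, and the TKO falls 7 without TKO_PRT4165 replicate 2.

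In both genotypes 7 genes fell and 5 rose, which is 7.69% and 5.49% of the 91, against 12.4% and 12.2% of all genes tested, and none was called in opposite directions. Those that fell were Sdhd, Ndufa5, Ndufaf7, Ndufb3, Ndufaf4, Cox7b and Uqcrh. Sdhd had 66.9 and 64.7 CPM in TKO_PRT4165 cells against 92.4 and 90.0 CPM in TKO_DMSO cells (log2 change -0.47, SE 0.05, adjusted p = 8.96e-08), and 104 and 95.5 CPM in WT_PRT4165 cells against 129 and 126 CPM in WT_DMSO cells (-0.35, SE 0.05, adjusted p = 3.80e-06). Ndufa5, an accessory subunit of complex I, had 26 and 22.8 CPM in TKO_PRT4165 cells against 29.3 and 32.3 CPM in TKO_DMSO cells (-0.33, SE 0.07), and 25.3 and 24 CPM in WT_PRT4165 cells against 40.3 and 38.1 CPM in WT_DMSO cells (-0.67, SE 0.07, adjusted p = 8.75e-08). In each pair the inhibitor libraries lay below the vehicle libraries. The calls of Ndufb3 and Ndufaf7 in TKO cells and of Ndufb3, Ndufaf4, Cox7b and Uqcrh in WT cells were each lost without at least 1 library. Without WT_DMSO replicate 1 the WT adjusted p was 0.0526 for Ndufb3, 0.243 for Ndufaf4, 0.308 for Cox7b and 0.0695 for Uqcrh. Without TKO_PRT4165 replicate 2 the TKO adjusted p was 0.109 for Ndufb3 and 0.158 for Ndufaf7.

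The 5 that rose in both were Uqcrc1, Ndufa10, Cox4i1, Cox8a and Cox5b. Uqcrc1 had 359 and 340 CPM in TKO_PRT4165 cells against 280 and 282 CPM in TKO_DMSO cells (0.31, SE 0.04), and 332 and 323 CPM in WT_PRT4165 cells against 300 and 294 CPM in WT_DMSO cells (0.14, SE 0.04), a WT call that was lost without WT_PRT4165 replicate 1 (adjusted p = 0.0818). Cox5b had 135 and 130 CPM in TKO_PRT4165 cells against 110 and 115 CPM in TKO_DMSO cells (0.24, SE 0.05), and 266 CPM in each WT_PRT4165 library against 215 and 225 CPM in WT_DMSO cells (0.27, SE 0.04). Without TKO_DMSO replicate 1 the TKO calls of Ndufa10, Cox4i1 and Cox8a were lost (adjusted p = 0.0678, 0.0775 and 0.143), and without WT_DMSO replicate 1 the WT call of Cox8a (0.0543). The rises called in both were at most 0.31 on the log2 scale. Of 4 complex II genes only Sdhd was called in either genotype. The rare isoforms Ndufa4l2 in WT cells (0.94, SE 0.24, with 2.2 and 2.77 CPM in WT_PRT4165 against 1.18 and 1.37 CPM in WT_DMSO) and Cox4i2 in TKO cells (0.89, SE 0.36, adjusted p = 0.0495, with 1.07 and 0.994 CPM in TKO_PRT4165 against 0.404 and 0.703 CPM in TKO_DMSO) had larger fitted changes at very low levels, and the Cox4i2 call was lost under library size scaling (0.0572), in DESeq2 (0.156) and without any TKO library (0.113 to 0.379). Cox7b2 was not called with the inhibitor in WT cells (0.23, SE 0.60) or in TKO cells (-0.24, SE 0.20). In the other direction, Cox8c had the largest fitted fall of the members in TKO cells (-1.13), also at a very low level. That fall did not pass the adjusted p of 0.05 under every alternative. The change of Cox8c in WT cells was not called.

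**Figure D4:**
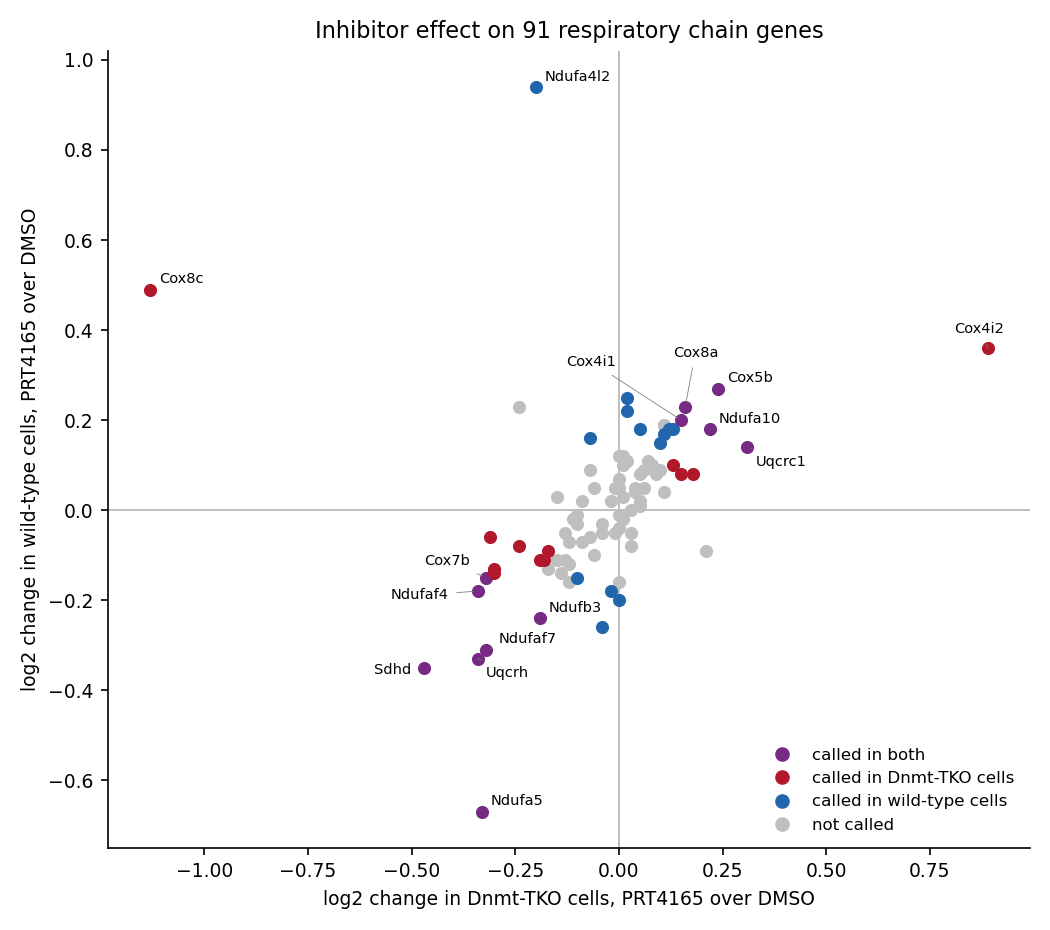
The log2 change with PRT4165 over DMSO of the 91 genes tested, in TKO cells (horizontal) and in WT cells (vertical); colours mark where the change passed the adjusted p of 0.05. The 7 genes lower in both lie at the lower left, the 5 higher in both at the upper right, and Cox8c, Cox4i2 and Ndufa4l2, all under 3 CPM, lie away from the rest.

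Whether the inhibitor acted differently in TKO and WT cells was tested as an interaction. No member passed in either direction in edgeR's quasi-likelihood test or in DESeq2, against 1.77% of all genes higher and 2.12% lower; 12 members had an unadjusted p under 0.05, 4 higher and 8 lower in TKO. The smallest adjusted p was 0.0569, for Ndufa4l2 (-1.13, SE 0.34). Leaving out a library gave 4 lower (without WT_DMSO replicate 1), 3 higher and 1 lower (without WT_DMSO replicate 2), 1 lower (without TKO_PRT4165 replicate 1) and 1 higher (without TKO_PRT4165 replicate 2). The mitochondrially encoded mRNAs, in contrast to the nuclear genes, fell with the inhibitor: 7 of 12 in TKO cells (median -0.27) and 10 of 12 in WT cells (median -0.51), and 3 of them (mt-Co2, mt-Co3 and mt-Atp6) passed the interaction, with smaller falls in TKO cells. Their share of all counts was 2.52% and 2.77% in TKO_PRT4165 against 3.34% and 3.30% in TKO_DMSO libraries, and 1.87% and 1.91% in WT_PRT4165 against 2.38% and 3.20% in WT_DMSO libraries.

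With Tet1 lost as well as the methyltransferases, most of the respiratory chain genes lay above their level in TKO cells. In Tet1KO-TKO over TKO cells 79 of the 91 changes were above 0, with a median of 0.23 beside 0.00 over all genes. Both Tet1KO-TKO libraries lay above both TKO libraries for 71 genes and below them for 6, against 33.2% and 32.4% of all genes. In edgeR 11 genes (12.1%) rose and 0 fell, against 11.6% and 10.3% of all genes. The share that rose was thus near that of all genes. DESeq2 gave 12 and 0, and 34 members higher and 2 lower had an unadjusted p under 0.05 in edgeR. The 11 were Ndufa10, Ndufab1, Ndufb8 and Ndufc1 of complex I, Sdha and Sdhd of complex II, Cox6c of complex IV, Atp5c1, Atp5g3 and Atp5j2 of complex V, and Ndufaf7. Atp5c1, the gamma subunit that forms the rotor, had 316 and 285 CPM in Tet1KO-TKO cells against 225 and 215 CPM in TKO cells (0.45, SE 0.10, adjusted p = 0.00822). Sdha had 299 and 283 CPM in Tet1KO-TKO cells against 230 and 226 CPM in TKO cells (0.35, SE 0.09, adjusted p = 0.0187). Cox6c had 301 and 299 CPM in Tet1KO-TKO cells against 194 and 200 CPM in TKO cells (0.61, SE 0.19, adjusted p = 0.0374). In these 3 genes each Tet1KO-TKO library lay above both TKO libraries.

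Marker sums moved in the same comparison. Trophoblast markers summed to 461 and 626 CPM in Tet1KO-TKO cells against 131 and 141 CPM in TKO cells, the 5 endoderm markers to 71.5 and 149 CPM against 35.6 and 58.1 CPM, and pluripotency markers to 6194 and 6340 CPM against 5632 and 5715 CPM. Their part in the result was not tested.

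The number of calls rested on single libraries. With a block for the replicate number 17 members rose and 1 fell. No member rose without Tet1KO-TKO replicate 1, TKO replicate 1 or TKO replicate 2, and 35 rose and 1 fell without either WT library, which enters this comparison only through the estimate of spread. Scaling by library size alone lowered the share of calls that were rises to 40.7%, from 52.9%, and left 4 members higher and 1 lower, and length adjustment left 5 higher and 4 lower, with a median of 0.07 for the members beside -0.04 over all genes. Other genes with transcripts under 750 bases had a median of 0.17, beside 0.26 for the members of that length, and those from 750 to under 1500 bases 0.12, beside 0.23. The Tet1KO-TKO libraries also differed from each other by transcript length: replicate 2 over replicate 1, the median was -0.127 for transcripts under 750 bases, 0.0552 from 3000 bases, and -0.146 for the members.

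Set against WT cells, 27 members fell in Tet1KO-TKO cells and 2 rose, against 24.4% and 26.3% of all genes, with a median of -0.17. The TKO and WT libraries are shared with the comparisons above. The 2 that rose were Ndufb7, with 75.0 and 68.5 CPM in Tet1KO-TKO cells against 38.4 and 35.6 CPM in WT cells (0.95, SE 0.10), and Cox7b2, with 5.90 and 4.42 CPM against 0.106 and 0.220 CPM (5, SE 0.36). The 6 members on chromosome 1 all fell, with a median of -0.65, and Ndufs1 had 157 CPM in each Tet1KO-TKO library against 286 and 324 CPM in WT cells (-0.96, SE 0.10). Of the 7 core subunits of complex I 5 fell, and of the 17 genes of complex V 2 fell. Falls numbered 16 without Tet1KO-TKO replicate 2, and rises 5 without WT replicate 2.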

How the data were processed

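Gene-level raw counts were deposited by the authors as whole numbers in 2 tables, one per experiment. RNA was poly(A)-selected and made into libraries with NEBNext Ultra, per the labels' protocols; whether counting used strand is not given in the sources used here. The submitters' processing notes name Bowtie 0.12.8, TopHat2 2.0.2, HTSeq 0.5.3p9 and mm9. Identifiers were matched to GENCODE vM21 for 32938 of 37991 rows; unmatched rows held 0.482% to 0.850% of counts. Each experiment was fitted separately with edgeR 4.0.16 (quasi-likelihood, TMM, filterByExpr with minimum count 10 and total 15), with all its groups in the fit, 4 and 3 residual degrees of freedom, and Benjamini-Hochberg adjustment over all genes. SE is that of the log2 change. DESeq2 1.42.0, other scalings and filters, a replicate block and leaving out each library were alternatives. The exons of 32 members overlap another gene and 5 members have a named pseudogene, so their counts are less certain. Deviations of same-numbered replicates correlated between groups at -0.0345 to 0.0384 in the first experiment and at 0.111 to 0.236, over 0.1 in all 3 pairs of groups, in the second; the labels do not say that the numbers pair libraries. Replicate libraries differed beyond sampling noise in every group. Named members are those with the smallest p by complex and direction, the largest changes, complex II and the isoforms; a member named for one comparison is given for its counterpart. The members and lists were chosen with earlier results of these data known. The fitting was tested on simulated data. Values of 1 member are not reported here.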

Additional observations from a re-analysis of the deposited data

Results flagged for a closer look

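Ndufa4l2 and Cox6b2 differed in direction between the experiments. Both libraries of TKO cells lay above both WT libraries with vehicle and below both untreated, with log2 changes of 0.49 and -1.61 for Ndufa4l2 and of 0.23 and -0.32 for Cox6b2. Only the untreated change of Ndufa4l2 passed the threshold. The difference between experiments was not tested, since they were fitted separately.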

How the results depend on the processing

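With vehicle, TKO over WT, library size alone gave 12 members higher; length adjustment, added after seeing the data, gave 19 higher and 45 lower, and untreated 8 higher and 34 lower. For the inhibitor in WT cells DESeq2's test gave 8 higher. In TKO cells length adjustment gave 16 higher, and fitting the compared groups only gave 15 higher and 23 lower. For the interaction, 1 was lower with no low-count filter and 1 higher with length adjustment. For Tet1KO-TKO over TKO cells, library size alone gave 4 higher and 1 lower, no filter 19 and 1, length adjustment 5 and 4, the compared groups only 34 and 1, and a minimum count of 50 gave 1 lower. Over WT cells length adjustment gave 7 higher. Cox8a, not called with vehicle (-0.01), was 0.14 with library size alone and 0.24 with length adjustment; the cause of these shifts was not tested.

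Leaving out 1 library gave, with vehicle, 5 to 6 higher and 61 to 72 lower, and untreated 3 to 4 and 35 to 62. The inhibitor gave 6 to 15 higher and 4 to 18 lower in WT cells, 2 to 13 and 7 to 21 in TKO cells, and 0 to 3 and 0 to 4 for the interaction. Tet1KO-TKO over TKO cells gave 0 to 35 higher and 0 to 1 lower, and over WT cells 2 to 5 and 16 to 38. Replicate numbers are shared between groups, and the labels do not say that they pair the libraries. With the replicate block, Tet1KO-TKO over TKO cells gave 17 higher and 1 lower, and no other count moved by over 1.5 times. Of the named members' values under all alternatives, 3521 kept direction and call, 234 lost the call, 96 gained it, 118 changed sign without being called either way and 2, both of Cox8a, became called with the other sign. Genes with few counts, such as Cox7b2 and Cox8c in WT cells, have imprecise fold changes.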
